A study of Mus musculus with 16 samples.

Results

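The serpin genes of mouse embryonic stem cells (ESCs) were followed in 8 cell lines, each grown with leukaemia inhibitory factor (LIF) and without it. Every gene whose symbol begins with Serpin was taken where a probe set carried that symbol alone, with the probe set of highest mean where a gene had several. That gave 60 genes of the 30102 on the arrays. Changes are reported for the 9 of them whose log2 signal exceeded 6 on at least 1 of the 16 arrays. A further 9 serpin genes of the reference table were not analysed here.

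Serpins are proteins that mostly inhibit serine proteases: the protease cuts an exposed loop of the serpin, which then folds over and traps the enzyme in a covalent complex. Vertebrate serpins are sorted into clades by sequence, and the letter after "Serpin" gives the clade. Clades A, C and D hold mainly liver-made plasma inhibitors, clade B holds inhibitors that stay inside the cell, and some members, such as Serpinh1 and Serpinf1, inhibit no protease. Mouse clade B has been much duplicated, and the Serpinb6 and Serpinb9 copies lie side by side on a single chromosome.

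The series holds total RNA on 16 Affymetrix arrays, 1 for each line in each condition. EBRTcH3, a male ESC line of strain 129SV, was the wild type. The other 7 lines were EBRTcH3 cells without any of the Mbd3a, b and c products (Mbd3abc-KO), into which a vector had been stably placed. MBD3 belongs to NuRD, a complex that remodels nucleosomes and removes acetyl groups from histones. The vector carried a natural form of the protein (lines MBD3a, MBD3b and MBD3c) or no insert (empty vector). In the remaining lines it carried MBD3a from which the methyl-CpG-binding domain (line MBD-deleted), the coiled coil (coiled-coil-deleted) or both domains (doubly deleted) had been removed. Each line was sampled in medium with LIF and after 12 days without it. A coiled coil was retained in 5 lines (EBRTcH3, MBD3a, MBD3b, MBD3c and MBD-deleted, here the 5 retaining lines), and lacking in 3 (empty vector, coiled-coil-deleted and doubly deleted, the 3 lacking lines). The title of the series places its question there, in what the coiled coil of MBD3 does for lineage commitment. The sources used here give neither the promoter of the vectors nor whether a line was a single clone.

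The labels name no second culture of a line, so each line counted as a replicate and the p-values reflect how far these particular lines differed. Signals are log2 values, and signals of different probe sets were not set against each other, save that those of marker lists were summed. Array medians ran from 4.72 to 4.85. Mbd3 itself was lowest in the empty vector line, at 7.00 with LIF and 7.45 without, and lay between 8.45 and 9.59 on the other 14 arrays. The ESC markers Pou5f1, Sox2, Nanog and Zfp42 were above 10 on every array. Klf4, Esrrb, Tbx3 and Tfcp2l1 read 7.69 to 8.04, 9.19 to 10.01, 7.20 to 8.87 and 8.36 to 8.71 in the retaining lines without LIF. All 8 of these markers were lower there than with LIF. In total RNA of a whole culture, fewer cells of a type and less RNA per cell cannot be told apart. The title numbers fall in 2 runs: the first holds EBRTcH3, MBD3a, MBD3b, MBD3c and the empty vector, and the second holds the 3 deletion constructs.

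By clade, the 23 clade A genes (4 of them pseudogenes) never exceeded 5.37, the highest value of Serpina3n, an acute-phase antichymotrypsin relative. The single clade C gene, Serpinc1 (antithrombin), reached at most 4.34, Serpind1 (heparin cofactor II) 5.12 and Serpine3 5.00. Of 28 clade B genes, 5 passed log2 6: Serpinb6a, Serpinb6c, Serpinb9, Serpinb9b and Serpinb9e. In clade F, Serpinf1 passed and Serpinf2 (alpha-2-antiplasmin) stayed just below, at up to 5.86. Serping1 and Serpinh1, the single members of their clades, passed, as did Serpini1 of the 2 clade I genes, while Serpini2 reached 3.65. Just inside the threshold lay Serpinb9e (highest array 6.50), Serpinb9 (6.74) and Serpini1 (6.83), and just outside it Serpinb8 (5.98), an inhibitor of furin, Serpinb9g (5.91) and Serpinb9f (5.87).

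**Figure D1:**
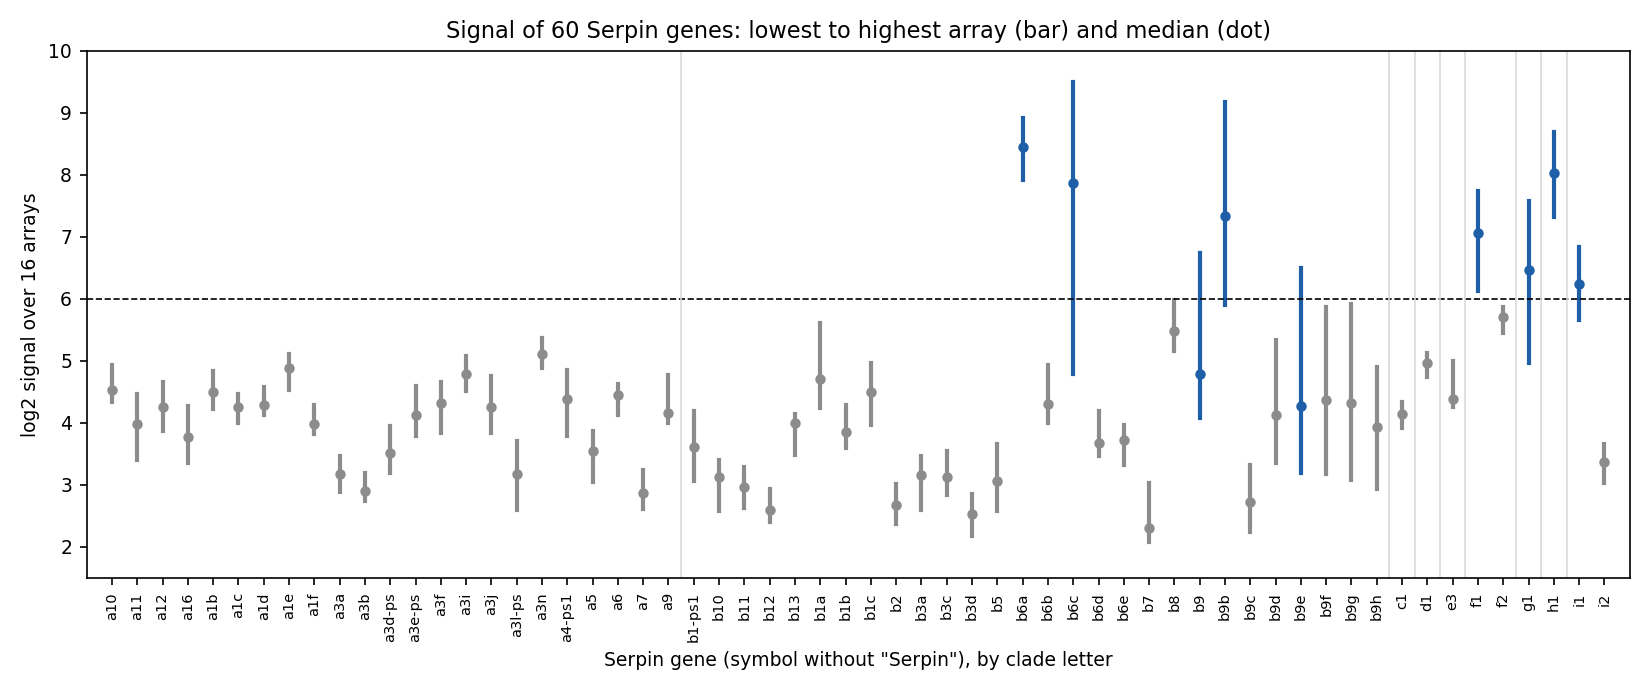
Log2 signal of the 60 Serpin genes by clade letter, with the lowest to highest of 16 arrays as a bar and the median as a dot. Blue marks the 9 genes above log2 6 (dashed line) on at least 1 array. All clade A bars end at or below 5.37, and the long bars of Serpinb6c, Serpinb9, Serpinb9b and Serpinb9e show the range over lines and conditions.

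LIF withdrawal moved most of the 9 genes in the retaining lines. Serpinb9, Serpinb9b and Serpinb9e rose most, Serpinb6c fell 10.9-fold, and Serpinb6a, Serping1 and Serpinh1 rose by less than 1 log2 while Serpinf1 fell by less than 1. In limma, 8 of 9 passed at an adjusted p under 0.05 (6 higher, 2 lower), where 35.8% of all 22872 tested genes passed (21.3% higher, 14.5% lower) and 44.5% of the tested genes above log2 6. Serpinb9, Serpinb9e and Serping1 exceeded log2 6 in some groups only, so a difference was built into their choice. Of the other 6, above log2 6 in every group, 5 passed (43.8% of tested genes of that kind). The median change of the 9 was 0.61 log2, against 0.04 over all tested genes.

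In the lacking lines 0 of 9 passed the same test (2.93% of all tested genes, 1.71% higher and 1.22% lower, and 3.77% of those above log2 6, or 3.38% of those above it in every group), with 5 at an unadjusted p under 0.05. Serpinb6c (-1.14 ± 0.29 log2, SE, n = 3 lines, adjusted p = 0.0615) and Serpinb9b (1.07 ± 0.28, adjusted p = 0.0703) came nearest. Both passed when EBRTcH3 or MBD-deleted was left out of the shared fit (adjusted p = 0.0221 and 0.0224 for Serpinb6c, 0.0234 and 0.0467 for Serpinb9b). The SE comes from the shared fit of all 8 lines, not from the 3 lacking lines alone. The SD of the responses was 0.17 in the lacking and 0.75 in the retaining lines for Serpinb9b, and 0.52 and 0.69 for Serpinb6c. The median change of the 9 was 0.06 log2, against -0.0017 over all tested genes. The response itself differed between the classes in 7 of 9 genes, 2 higher and 5 lower in the lacking lines, where 12.1% of all tested genes differed (4.17% higher, 7.9% lower). The share was 15.4% of the tested genes above log2 6. Of the 6 serpins above log2 6 in every group 5 differed, beside 14% of tested genes of that kind. The median of the difference, lacking minus retaining, was -0.75 log2 for the 9 and -0.05 over all tested genes.

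**Figure D2:**
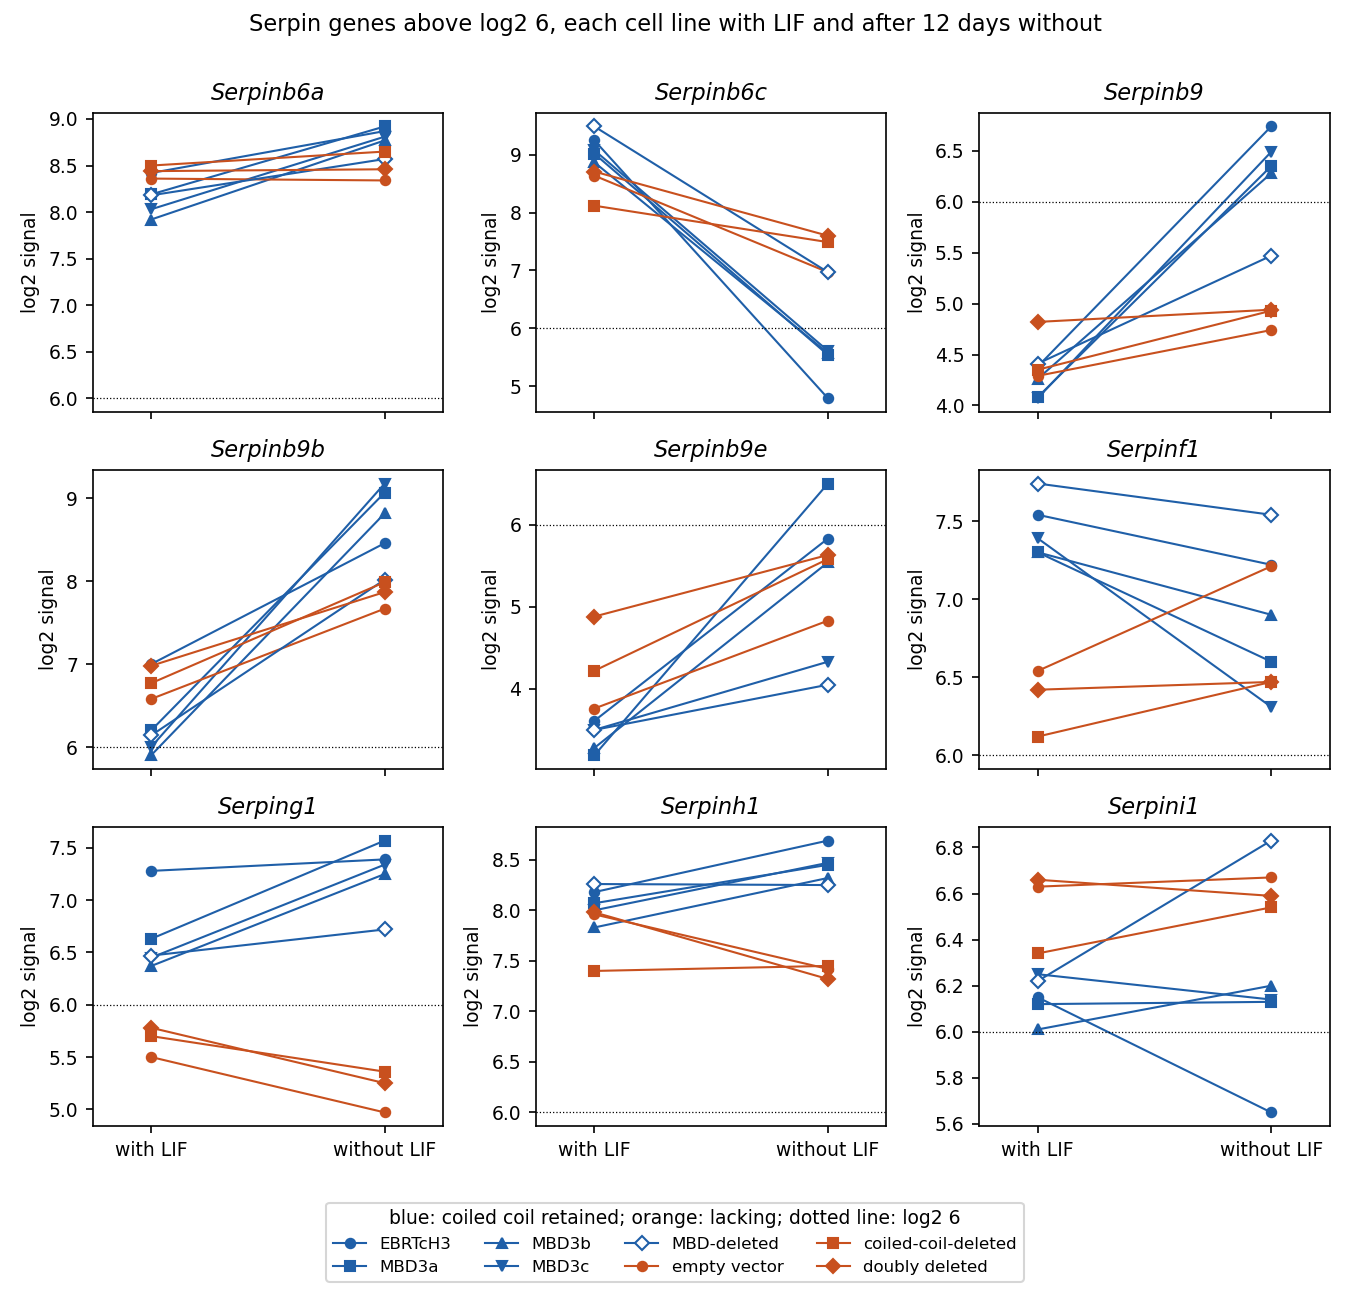
Log2 signal of the 9 Serpin genes with LIF and after 12 days without it, a line of the plot for each cell line, with the vertical axis scaled to each gene. Blue lines retain a coiled coil (open diamond: MBD-deleted), orange lines lack it, and the dotted line is log2 6. Serpinb6c falls and Serpinb9 rises steeply in the blue lines, and Serping1 keeps the orange lines below the blue ones in both conditions.

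Serpinb9, in mouse also called SPI6, encodes the inhibitor of granzyme B that protects cells from cytotoxic granules. With LIF its log2 signal was 4.38, 4.08, 4.26, 4.07 and 4.41 in EBRTcH3, MBD3a, MBD3b, MBD3c and MBD-deleted, and without LIF it was 6.74, 6.35, 6.28, 6.49 and 5.47. In the empty vector, coiled-coil-deleted and doubly deleted lines it was 4.29, 4.35 and 4.82 with LIF and 4.74, 4.93 and 4.94 without. The retaining lines were all higher without LIF, with MBD-deleted the lowest of them, and none of the lacking lines reached any of these 5 values. Serpinb9 exceeded log2 6 only in retaining lines without LIF, so such differences were partly built into its choice. The rise in the retaining lines was 2.03 ± 0.17 log2 (SE, n = 5, 4.07-fold, adjusted p = 6.35e-06), and the change in the lacking lines was 0.38 ± 0.22 (n = 3), which did not pass. The difference of the responses was -1.64 ± 0.28 (adjusted p = 0.00386), and without LIF the lacking lines differed from the retaining ones by -1.40 ± 0.23 (2.63-fold lower, adjusted p = 0.00232). With LIF the classes differed by 0.25 ± 0.14 (adjusted p = 0.289). These calls were kept with any line left out.

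Serpinb9b, the neighbouring copy, had the largest rise of the 9 genes. With LIF it lay at 7.00 in EBRTcH3 and at 6.20, 5.90, 6.00 and 6.14 in MBD3a, MBD3b, MBD3c and MBD-deleted, and without LIF at 8.46, 9.07, 8.82, 9.18 and 8.02 in the same order. The empty vector, coiled-coil-deleted and doubly deleted lines read 6.58, 6.77 and 6.98 with LIF and 7.67, 7.99 and 7.87 without. All 8 lines were higher without LIF, and EBRTcH3, which started highest of the retaining lines, gained least of them. The change was 2.46 ± 0.21 log2 (SE, n = 5, 5.51-fold, adjusted p = 8.12e-06) in the retaining lines. The responses differed by -1.40 ± 0.35 (adjusted p = 0.0256), and the classes without LIF by -0.87 ± 0.24 (adjusted p = 0.0268). Without MBD3a, MBD3b, MBD3c, the empty vector, coiled-coil-deleted or doubly deleted, neither difference passed (-1.22 to -1.47 and -0.75 to -0.94). With LIF the class difference of 0.53 did not pass (adjusted p = 0.138), but without EBRTcH3 it did (0.72, adjusted p = 0.00623).

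Serpinb9e, a further copy, had the widest spread. With LIF the 5 retaining lines, in the same order, read 3.61, 3.19, 3.28, 3.50 and 3.50, and without LIF 5.83, 6.50, 5.54, 4.33 and 4.05. The 3 lacking lines read 3.76, 4.22 and 4.88 with LIF and 4.83, 5.58 and 5.63 without. MBD3a alone exceeded log2 6, and MBD3c (0.83) and MBD-deleted (0.55) gained less than the empty vector (1.07) and coiled-coil-deleted (1.36) lines. The rise in the retaining lines was 1.83 ± 0.32 log2 (SE, n = 5, 3.57-fold, adjusted p = 0.000956) and the change in the lacking lines 1.06 ± 0.41 (n = 3, adjusted p = 0.234). The difference of -0.77 between these did not pass (adjusted p = 0.39). With LIF the lacking lines were higher by 0.87 ± 0.21 (adjusted p = 0.018), a call lost without coiled-coil-deleted (0.90, adjusted p = 0.0544) or doubly deleted (0.57, adjusted p = 0.0571). Of the values with LIF, only the 4.88 of doubly deleted lay above the array medians of 4.72 to 4.85, so this call rests on weak signals.

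The upstream sequences of these copies are shown because some of them are near-identical. RefSeq windows (build GRCm38.p6, 250 bases before to 50 after each annotated start) were found for 8 of the 9 genes. The 250 bases before the start of Serpinb9 (chr13:33004291-33004540, plus strand) and Serpinb9b (chr13:33027164-33027413, plus strand) follow, 5′ to 3′. Capitals mark the longest run the 2 windows share, 13 bases.
Serpinb9: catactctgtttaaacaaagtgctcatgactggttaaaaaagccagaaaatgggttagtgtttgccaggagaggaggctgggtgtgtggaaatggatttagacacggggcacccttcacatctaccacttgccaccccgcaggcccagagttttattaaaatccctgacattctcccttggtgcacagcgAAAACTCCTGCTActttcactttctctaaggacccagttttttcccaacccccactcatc
Serpinb9b: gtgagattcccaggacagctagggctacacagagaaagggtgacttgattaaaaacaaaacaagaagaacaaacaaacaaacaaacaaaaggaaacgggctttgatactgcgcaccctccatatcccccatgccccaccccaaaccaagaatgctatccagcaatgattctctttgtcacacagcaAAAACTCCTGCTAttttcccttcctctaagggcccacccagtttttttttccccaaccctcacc
Over 300 aligned positions these 2 windows were 61.7% identical, and the shared run ends 48 and 52 bases before the start.

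Serpinb9e (chr13:33249358-33249607), Serpinb9f (chr13:33323827-33324076) and Serpinb9g (chr13:33484540-33484789), all on the plus strand, were nearly the same sequence set a few bases apart. Capitals mark a run of 60 bases found in all 3.
Serpinb9e: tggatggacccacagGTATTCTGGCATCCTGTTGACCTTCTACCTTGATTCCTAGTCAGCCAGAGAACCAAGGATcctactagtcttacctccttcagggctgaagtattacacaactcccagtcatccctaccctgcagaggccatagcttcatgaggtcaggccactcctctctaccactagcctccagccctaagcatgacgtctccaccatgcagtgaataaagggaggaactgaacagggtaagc
Serpinb9f: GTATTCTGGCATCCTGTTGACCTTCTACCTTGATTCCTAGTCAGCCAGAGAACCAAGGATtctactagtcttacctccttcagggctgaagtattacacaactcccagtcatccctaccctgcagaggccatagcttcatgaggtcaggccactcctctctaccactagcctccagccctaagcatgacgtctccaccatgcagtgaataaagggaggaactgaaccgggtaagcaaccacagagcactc
Serpinb9g: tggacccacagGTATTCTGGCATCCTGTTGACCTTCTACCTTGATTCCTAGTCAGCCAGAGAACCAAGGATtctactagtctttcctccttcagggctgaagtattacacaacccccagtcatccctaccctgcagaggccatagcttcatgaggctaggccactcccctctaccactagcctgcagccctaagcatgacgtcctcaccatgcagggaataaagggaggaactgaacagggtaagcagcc
Serpinb9e and Serpinb9f were 99.3% identical over 285 aligned positions, Serpinb9e and Serpinb9g 95.9% over 296, and Serpinb9d was 91.0% identical to Serpinb9e and 90.7% to Serpinb9g. Serpinb9h was 49.8% identical to Serpinb9e. These windows lie mostly before the start, and no transcript or probe sequences were compared. Whether the probe sets of the Serpinb9 copies take up each other's transcripts was not tested, and their values are uncertain as values of single genes. Serpinb9f ran from 3.17 to 5.87 and Serpinb9g from 3.08 to 5.91, below the threshold, with mean responses of 1.63 and 1.64 log2 in the retaining lines and 0.76 and 0.86 in the lacking lines. Serpinb9d had mean responses of 0.95 and 0.89, and Serpinb9h of 1.08 and 0.63. These means were upward in both classes, and those of Serpinb9c, never above 3.31, were 0.38 and 0.01.

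Serpinb6c fell in the retaining lines. It is a mouse copy of Serpinb6a, whose product SPI3 is an inhibitor of trypsin-like proteases inside the cell. With LIF its signal was 9.25, 9.02, 8.87, 9.08 and 9.49 in the same 5 lines, and without LIF 4.79, 5.54, 5.57, 5.61 and 6.97. The empty vector, coiled-coil-deleted and doubly deleted lines had 8.64, 8.12 and 8.71 with LIF and 6.97, 7.49 and 7.60 without. Every line was lower without LIF, and MBD-deleted ended level with the empty vector line, above the other 4 retaining lines. The change in the retaining lines was -3.45 ± 0.22 log2 (SE, n = 5, 10.9-fold lower, adjusted p = 9.4e-07). The responses differed by 2.31 ± 0.36 (adjusted p = 0.00245). With LIF the lacking lines lay lower (-0.65 ± 0.17, adjusted p = 0.0248) and without LIF higher (1.66 ± 0.39, 3.15-fold, adjusted p = 0.0136). The first of these calls was lost without EBRTcH3 (-0.63, adjusted p = 0.052) or coiled-coil-deleted (-0.47, adjusted p = 0.119), and the second without coiled-coil-deleted (1.59, adjusted p = 0.0552) or doubly deleted (1.53, adjusted p = 0.0647).

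Serpinb6a changed little beside it. The 5 retaining lines read 8.42, 8.19, 7.92, 8.03 and 8.18 with LIF and 8.87, 8.92, 8.77, 8.81 and 8.57 without, and the 3 lacking lines 8.36, 8.50 and 8.44 with LIF and 8.34, 8.65 and 8.46 without. All retaining lines were higher without LIF, by 0.39 (MBD-deleted) to 0.85 (MBD3b), and the lacking lines differed by -0.02 to 0.15. The rise in the retaining lines was 0.64 ± 0.09 log2 (SE, n = 5, 1.56-fold, adjusted p = 0.000187). The difference of the responses, -0.59 ± 0.14 (adjusted p = 0.022), was lost without MBD3a, MBD3b, MBD3c, the empty vector, coiled-coil-deleted or doubly deleted (-0.54 to -0.64). The class differences of 0.29 with LIF (adjusted p = 0.146) and -0.30 without LIF (adjusted p = 0.0618) did not pass, although the second did without MBD-deleted (-0.36, adjusted p = 0.0195) or coiled-coil-deleted (-0.39, adjusted p = 0.0491).

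The upstream windows of this pair are shown because the pair moved in opposite directions. STAT3, which LIF activates, binds the letters TTCNNNGAA (the same on both strands), and these letters were searched for in every window. They were found in 8.3% of 32851 RefSeq windows and in 1 of the 8 serpins with a window, Serpinb6a, from base -77 and again from base 20 counted from the start. The stretch of Serpinb6a around the first match (chr13:34002838-34002897, minus strand) has the match in capitals, and the 250 bases before the start of Serpinb6c (chr13:33905192-33905441, minus strand) hold none.
Serpinb6a: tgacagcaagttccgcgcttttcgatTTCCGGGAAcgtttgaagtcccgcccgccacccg
Serpinb6c: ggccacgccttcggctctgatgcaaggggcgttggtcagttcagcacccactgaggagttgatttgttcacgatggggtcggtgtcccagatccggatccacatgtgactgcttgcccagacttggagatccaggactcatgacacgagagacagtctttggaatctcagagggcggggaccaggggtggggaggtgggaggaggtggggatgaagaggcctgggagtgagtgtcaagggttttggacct
Local alignment matched 86 of 184 positions (46.7%) between Serpinb6c and this Serpinb6a window, and 48.0% for the second Serpinb6a window. The 2 Serpinb6a windows matched each other at 45.7%, and Serpinb9h matched this Serpinb6a window at 48.7%. These shares thus do not set the pair apart from other windows. A match is a description of letters and no evidence of binding. The letters TATAAA, in 13.6% of windows on either strand, occurred in Serpinb6c alone of the 8, at base 3 on the opposite strand. The exact letters GAA, TTC and GAA with 2 bases between each, a form of the heat shock element, were in 0.603% of windows and in none of the 8. At so low a share, finding none says little about any of the 8, Serpinh1 included. Other forms of the element were not searched for.

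Along chromosome 13 the order of the genes, from the reference table, was Serpinb1a, Serpinb1c, Serpinb6b, Serpinb9, Serpinb9b, Serpinb1b, the other Serpinb9 copies, Serpinb6d, Serpinb6e, Serpinb6c and Serpinb6a. Places are counted over genes with a value here, so genes without one may lie between. The responses did not follow a single direction over it. Serpinb1a, a neutrophil elastase inhibitor, had mean responses of -0.25 and 0.10 log2 in the retaining and lacking lines, Serpinb6b 0.67 and -0.16, and Serpinb6c and Serpinb6a, next to each other, -3.45 and 0.64 in the retaining lines. Within the cluster, the predicted genes Gm11394, 3 genes before Serpinb6c, and Gm11383, between Serpinb1b and Serpinb9c, changed by -0.83 (adjusted p = 0.000122) and 0.46 (adjusted p = 0.0186) in the retaining lines. Serpinb6d (-0.27) and Serpinb6e (-0.12), which lie on the same side of Serpinb6c and never exceeded log2 4.19, had mean responses below 0. Of the genes that flank the cluster, Wrnip1 rose by 0.26 in the retaining lines (adjusted p = 0.0334). Nqo2, 2 genes beyond Serpinb6a, rose by 0.69 in the retaining lines (adjusted p = 0.000929) and by 0.67 in the lacking lines (adjusted p = 0.0449), and Tubb2a stood at 0.0040 in the retaining lines (adjusted p = 0.979).

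**Figure D3:**
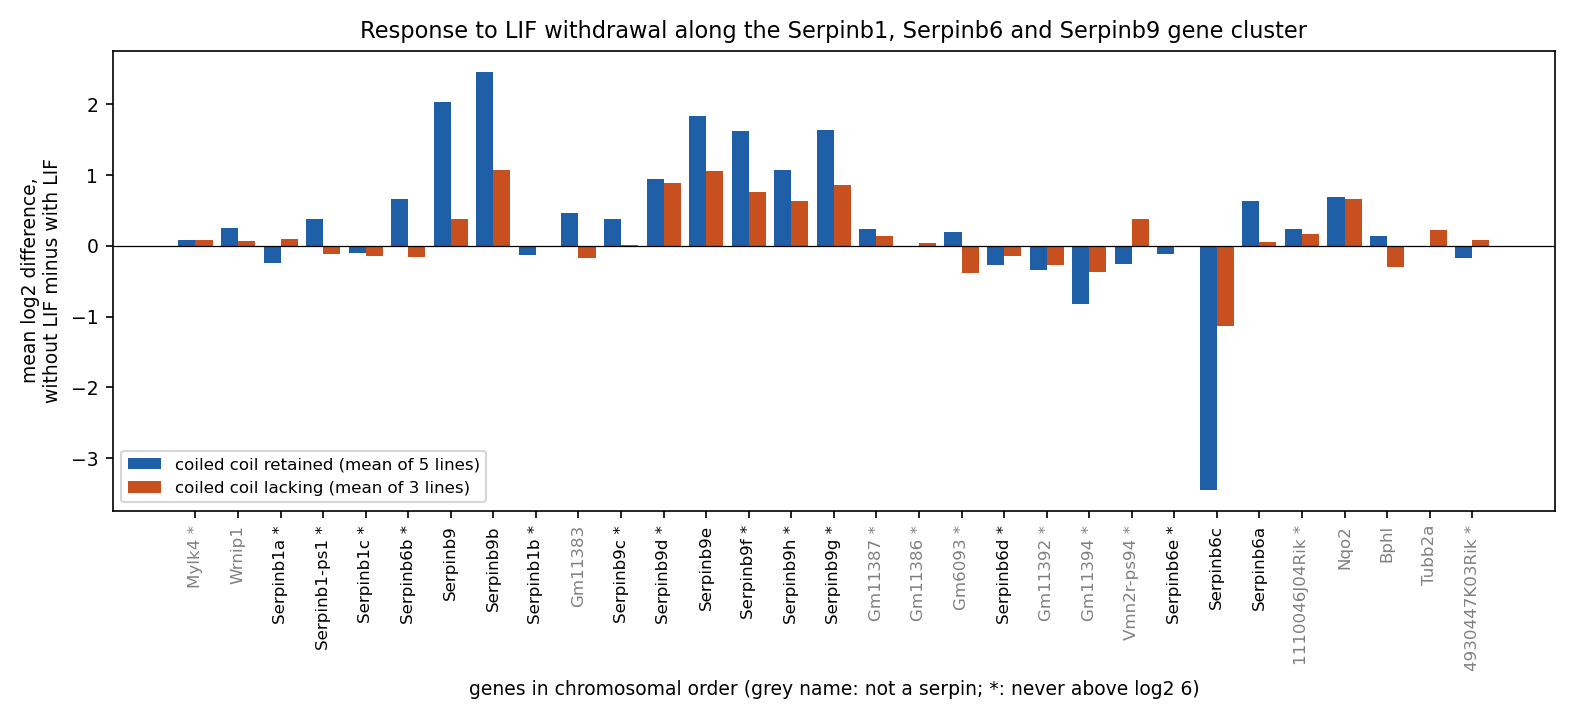
Mean log2 difference, without LIF minus with LIF, for genes in chromosomal order along the Serpinb1, Serpinb6 and Serpinb9 cluster, as bars from 0 for the 5 lines that retain a coiled coil (blue) and the 3 that lack it (orange). Grey names are not serpins and an asterisk marks genes never above log2 6. Upward bars run from Serpinb9 to Serpinb9g, with Serpinb1b and Serpinb9c near 0 or small, and Serpinb6c alone reaches -3.45.

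Serping1 and Serpinf1, both secreted, separated the classes of line before LIF was removed. In the other clade F gene, Serpinf2, which never exceeded log2 6, the class means differed by 0.02 log2 with LIF. Serping1 encodes the C1 inhibitor, which controls complement C1 and plasma kallikrein. The 5 retaining lines read 7.28, 6.63, 6.37, 6.45 and 6.47 with LIF and 7.39, 7.57, 7.25, 7.34 and 6.72 without, and the 3 lacking lines 5.50, 5.70 and 5.78 with LIF and 4.97, 5.36 and 5.25 without. The classes did not overlap in either condition, and without LIF each retaining line was higher and each lacking line lower than with it. Serping1 exceeded log2 6 in the retaining lines alone, so a difference between the classes was partly built into its choice. The lacking lines differed by -0.98 ± 0.19 log2 with LIF (SE, 1.97-fold lower, adjusted p = 0.00602) and by -2.06 ± 0.17 without LIF (4.17-fold, adjusted p = 4.71e-05). The rise in the retaining lines was 0.61 ± 0.13 (n = 5, adjusted p = 0.00299), the change in the lacking lines -0.47 ± 0.16 (n = 3, adjusted p = 0.186) and the difference of the responses -1.08 ± 0.21 (adjusted p = 0.00751). No left-out line ended a call of this gene.

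Serpinf1 encodes PEDF, a secreted protein that blocks vessel growth and inhibits no protease. It read 7.54, 7.30, 7.30, 7.39 and 7.74 with LIF in the 5 retaining lines and 7.22, 6.60, 6.90, 6.31 and 7.54 without, and 6.54, 6.12 and 6.42 with LIF in the lacking lines and 7.21, 6.47 and 6.47 without. With LIF the classes did not overlap, and without LIF they did. The lacking lines differed by -1.09 ± 0.14 log2 with LIF (2.13-fold, adjusted p = 0.000497), a call kept with any line left out, and by -0.20 ± 0.27 without (adjusted p = 0.676). The gene fell in the retaining lines (-0.54 ± 0.13, SE, n = 5, adjusted p = 0.00705), and the change in the lacking lines was 0.36 ± 0.17 (n = 3, adjusted p = 0.338). The responses differed by 0.90 ± 0.21 (adjusted p = 0.0197), which was lost without the empty vector (0.74, adjusted p = 0.0713) or coiled-coil-deleted (0.90, adjusted p = 0.0716), and when the fit left out the block by line (adjusted p = 0.0823).

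Serpinh1 encodes HSP47, the endoplasmic reticulum chaperone of procollagen. Its signal with LIF was 8.18, 8.07, 7.83, 8.00 and 8.26 in the retaining lines and 7.96, 7.40 and 7.98 in the lacking lines, and without LIF 8.69, 8.45, 8.32, 8.47 and 8.25 against 7.42, 7.45 and 7.32. The classes overlapped with LIF and were apart without it. The class difference without LIF was -1.04 ± 0.10 log2 (SE, 2.06-fold, adjusted p = 0.000114), kept with any line left out, while that with LIF, -0.29 ± 0.15, did not pass (adjusted p = 0.243). A second, weaker probe set of Serpinh1 (5.52 to 6.74) gave a class difference of -0.50 without LIF, so the size depends on the probe set. The retaining lines rose by 0.37 ± 0.11 (n = 5, adjusted p = 0.0258), which was lost without EBRTcH3, MBD3a, MBD3b or MBD3c (0.33 to 0.37), or with arrays centred on their median (0.26, adjusted p = 0.0814). The responses differed by -0.75 ± 0.19 (adjusted p = 0.0241), which was lost without MBD3a, MBD3b, MBD3c, the empty vector or doubly deleted (-0.61 to -0.75), or with the mean of both probe sets (-0.63, adjusted p = 0.0663).

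Serpini1, or neuroserpin, inhibits tissue plasminogen activator and is known mainly from neurons. It read 6.15, 6.12, 6.01, 6.25 and 6.22 with LIF in the retaining lines and 5.65, 6.13, 6.20, 6.14 and 6.83 without, and 6.63, 6.34 and 6.66 with LIF in the lacking lines and 6.67, 6.54 and 6.59 without. EBRTcH3 was the lowest and MBD-deleted the highest of all arrays without LIF. The difference without against with LIF was 0.04 ± 0.13 log2 in the retaining lines (SE, n = 5, adjusted p = 0.845) and 0.06 ± 0.17 in the lacking lines (n = 3, adjusted p = 0.926). With LIF the lacking lines were higher by 0.39 ± 0.11 (1.31-fold, adjusted p = 0.0343), a call lost without any 1 of EBRTcH3, MBD3a, MBD3b, MBD3c, the empty vector or doubly deleted (0.34 to 0.42), or with arrays centred on their median (0.31, adjusted p = 0.0869). Without LIF the difference of 0.41 ± 0.21 did not pass (adjusted p = 0.205), and it did without MBD-deleted (0.57, adjusted p = 0.0136).

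**Figure D4:**
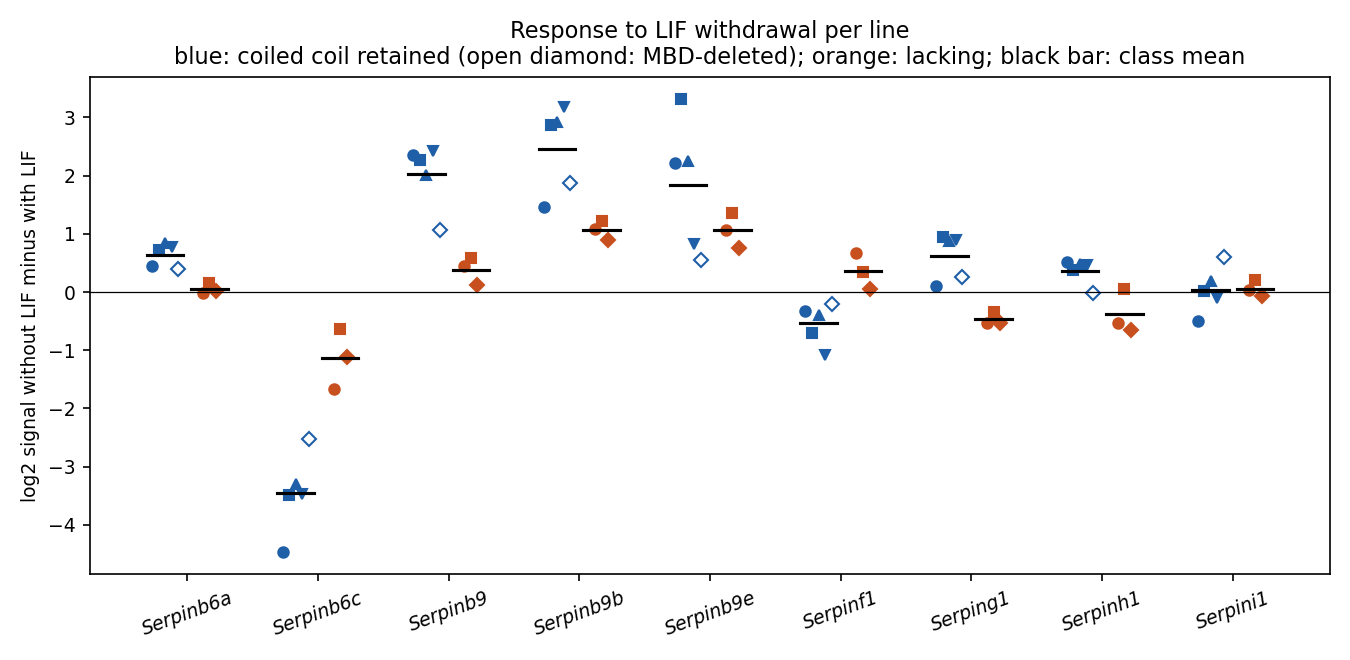
Response to LIF withdrawal (log2 signal without LIF minus with LIF) of the 9 Serpin genes, a point for each line, blue for the 5 that retain a coiled coil (open diamond: MBD-deleted) and orange for the 3 that lack it, with the class mean as a black bar. The classes do not overlap in Serpinb6a, Serpinb6c, Serpinb9, Serpinb9b, Serpinf1 and Serping1, and they overlap in Serpinb9e, Serpinh1 and Serpini1. The share of all tested genes without overlap was not counted, so this describes single genes and no trait of the serpins.

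Between the classes themselves, 5 of 9 serpins passed with LIF (2 higher and 3 lower in the lacking lines), where 14.1% of all tested genes passed (7.65% higher, 6.48% lower) and 17.9% of those above log2 6. Serpinb9e and Serpini1 were higher, and Serpinb6c, Serpinf1 and Serping1 lower. Without LIF 5 of 9 passed (1 higher, 4 lower), where 20.9% of all tested genes passed (8.55% higher, 12.4% lower) and 26.1% of those above log2 6. Serpinb6c was higher, and Serpinb9, Serpinb9b, Serping1 and Serpinh1 were lower. The median difference of the 9 was 0.25 log2 with LIF and -0.30 without, against 0.05 and 0.01 over all tested genes. Among the 6 genes above log2 6 in every group, 3 passed with LIF (17.3% of tested genes of that kind) and 3 without (24.9%). Serpinb6c passed with opposite signs in the 2 conditions and Serping1 with the same sign. With all 16 arrays in a single fit and line as a random block, Serpinb6c, Serpinb9e and Serpini1 no longer passed with LIF (adjusted p = 0.172, 0.164 and 0.122), and Serpinf1 and Serping1 did.

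**Figure D5:**
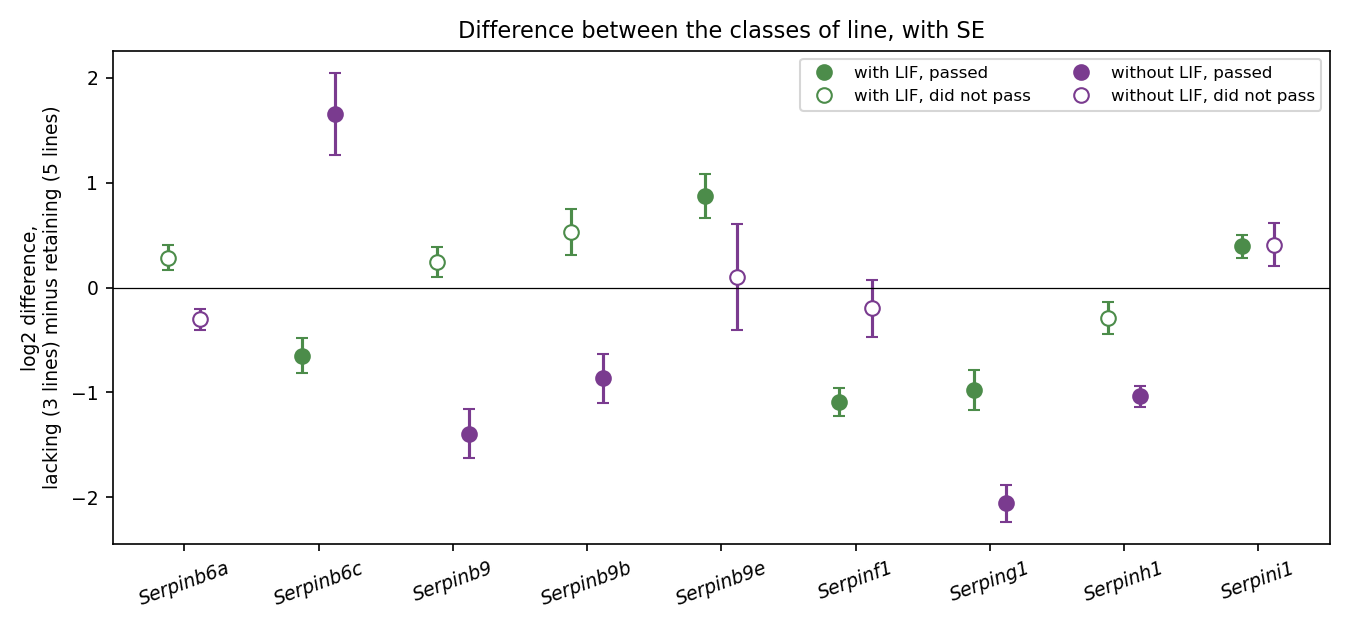
Log2 difference between the 3 lines that lack a coiled coil and the 5 that retain it, with LIF (green) and without LIF (purple), from limma with SE as error bars. Filled points passed at an adjusted p under 0.05. Serpinb6c changes from -0.65 with LIF to 1.66 without, and Serping1 lies at -0.98 and -2.06.

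Among the retaining lines, MBD-deleted had the smallest response in 6 of the 8 serpins that passed (75%), while it had the smallest in 3864 of all 8181 genes that passed (47.2%). Serpinb9 and Serpinb9e exceeded log2 6 through other retaining lines, so a small response of MBD-deleted was partly built into their choice. Of the 5 serpins that passed and exceeded log2 6 in every group, it had the smallest response in 4 (80%), beside 50% of the 6155 genes of that kind. Serpinb6c is among these 4. Of the retaining lines without LIF, it exceeded log2 6 in MBD-deleted alone (6.97, the others 4.79 to 5.61). A small response of MBD-deleted was thus partly built into this count too. Serpinb9 moved by 1.06 log2 in MBD-deleted and by 2.02 to 2.42 in the other 4 lines, and Serpinb6c by -2.52 against -4.46 to -3.30. In Serpinb9b and Serping1 the smallest response was that of EBRTcH3, at 1.46 and 0.11. MBD-deleted is also the only retaining line in the second run of titles, so the construct and the run cannot be told apart.

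Within the runs of titles the signs of all 7 differences of response that passed were kept. They had passed on these same arrays, so the kept signs are no separate test. How often the sign was kept over all genes that passed was not counted. In the first run (4 retaining lines, 1 lacking) the 7 differences were -0.72 for Serpinb6a, 2.01 for Serpinb6c, -1.82 for Serpinb9, -1.52 for Serpinb9b, 1.30 for Serpinf1, -1.24 for Serping1 and -1.0025 for Serpinh1. In the second (1 retaining, 2 lacking) they were -0.31, 1.65, -0.71, -0.83, 0.40, -0.69 and -0.30, and these were not tested. Each was smaller in the second run than in the first. The class differences without LIF were in the 2 runs 1.59 and 0.58 for Serpinb6c, -1.73 and -0.54 for Serpinb9, -1.21 and -0.09 for Serpinb9b, -2.42 and -1.42 for Serping1, and -1.06 and -0.87 for Serpinh1. With LIF they were -0.42 and -1.08 for Serpinb6c, 0.37 and 1.05 for Serpinb9e, -0.84 and -1.47 for Serpinf1, -1.18 and -0.73 for Serping1, and 0.50 and 0.28 for Serpini1. Serpinb9e without LIF turned sign between the runs (-0.72 and 1.56), as did Serpinf1 (0.45 and -1.07), and neither had passed. With the run as a covariate, the differences of response of Serpinb6a, Serpinb9b, Serpinf1 and Serpinh1 no longer passed (adjusted p = 0.066, 0.101, 0.0573 and 0.0813). Nor did Serpinb9b between the classes without LIF (adjusted p = 0.108), or Serpinb9e and Serpini1 with LIF (adjusted p = 0.0697 and 0.065).

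Genes that serpins act on or with were taken from lists, of which the members with the largest changes are named. Of 19 tested genes of plasminogen activation and coagulation, 9 rose and 1 fell in the retaining lines (median 0.14 log2), where 21.3% of all tested genes rose and 14.5% fell, led by F5 (2.31 ± 0.13, SE, adjusted p = 3.54e-07) and tissue factor F3 (2.35 ± 0.19). Pros1, the anticoagulant protein S, fell in both classes (-2.00 and -2.18). Plat, the plasminogen activator that Serpini1 inhibits, rose by 0.97 ± 0.08 in the retaining lines (adjusted p = 4.03e-06) and its response differed by -1.02 between the classes (adjusted p = 0.000691). In this list the response was lower in the lacking lines for 6 genes and higher for 0, where 7.9% and 4.17% of all tested genes were.

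Of 21 tested collagens and collagen-folding genes, the partners of Serpinh1, 14 rose and 1 fell in the retaining lines (median 0.56 log2), where 35.8% of all tested genes passed, and 0 passed in the lacking lines, where 2.93% did. The basement membrane collagens Col4a2 (1.79 ± 0.13, adjusted p = 2.49e-06) and Col4a1 (1.48 ± 0.11) and the prolyl hydroxylase subunit P4ha2 (0.92 ± 0.20) rose most. Without LIF 10 of 21 were lower in the lacking lines and 1 higher (12.4% and 8.55% of all tested genes), and with LIF 5 were higher and 0 lower (7.65% and 6.48%). Col4a1 was thus higher in the lacking lines with LIF (0.87 ± 0.10, adjusted p = 0.000384) and lower without (-0.67 ± 0.15, adjusted p = 0.0123). In the list of heat shock and folding genes 4 of 12 rose and 1 fell in the retaining lines, near the 35.8% of all tested genes that passed, with Hspa1a at 1.34 ± 0.12.

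A list of cathepsins, granzymes and neutrophil proteases, which also held 2 caspases and furin as targets of clade B serpins, had 19 tested genes, of which 4 rose and 2 fell in the retaining lines and 0 passed in the lacking lines. These shares lay near those of all tested genes (35.8% and 2.93%), as did the median of 0.04 log2 in the retaining lines. Of the cathepsins, Ctsc (2.12 ± 0.15, adjusted p = 1.97e-06) and Ctso (0.93 ± 0.19) rose, and Ctsa (-0.64 ± 0.10) and Ctsl (-0.27 ± 0.10) fell. The other two that rose were caspase-8 (Casp8, 2.40 ± 0.17, adjusted p = 1.99e-06) and furin (Furin, 0.95 ± 0.09). Ctsc was higher in the lacking lines with LIF (1.55 ± 0.18, adjusted p = 0.000382) and lower without (-0.95 ± 0.18, adjusted p = 0.00497). Of 16 membrane and pericellular serine proteases 9 rose and 2 fell in the retaining lines (median 0.45; 21.3% and 14.5% of all tested genes), with Tmprss2 (2.95 ± 0.20) and prostasin (Prss8, 2.44 ± 0.12) largest, and 2 rose and 0 fell in the lacking lines (1.71% and 1.22%). Htra1 was higher in the lacking lines in both conditions (2.73 ± 0.28 with LIF, adjusted p = 0.000163, and 1.88 ± 0.15 without).

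Of 22 tested inhibitors of other families, 6 rose and 1 fell in the retaining lines (median 0.12 log2), near the 35.8% of all tested genes that passed. Among those that rose were the metalloprotease inhibitors Timp2 (2.15 ± 0.17, adjusted p = 3.41e-06) and Timp3 (1.75 ± 0.11) and Spint1 (1.24 ± 0.13), which blocks membrane serine proteases. The broad protease trap A2m was higher in the lacking lines with LIF (2.13 ± 0.11, adjusted p = 3.38e-06) and fell there on LIF withdrawal (-1.80 ± 0.15, adjusted p = 0.000222). Without LIF 5 of the 22 were lower in the lacking lines and 1 higher, where 12.4% and 8.55% of all tested genes were. Of 16 genes of the TGF-beta response, 11 rose and 1 fell in the retaining lines (21.3% and 14.5% of all tested genes), and 6 rose and 1 fell in the lacking lines (1.71% and 1.22%).

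Markers of cell types moved beside the serpins, here given as the log2 of the summed signal of a list, lowest to highest line. The genes of highest signal weigh most in such a sum. Of all tested genes 21.3% rose and 14.5% fell in the retaining lines, and 1.71% rose and 1.22% fell in the lacking lines. All 8 ESC markers fell in the retaining lines, where the sum was 14.34 to 14.58 with LIF and 13.22 to 13.76 without. In the lacking lines 3 fell, and the sum was 14.31 to 14.47 with LIF and 13.86 to 13.99 without. The sums of the classes overlapped with LIF and were apart without it. Of 7 tested trophoblast markers 6 rose in the retaining lines, with sums of 8.95 to 9.53 with LIF and 12.23 to 13.50 without. In the lacking lines 2 rose, Krt8 and Elf5, with sums of 9.63 to 10.41 and 10.52 to 11.15. Elf5, a trophoblast transcription factor, rose there by 1.32 ± 0.12 (adjusted p = 0.000395), did not pass in the retaining lines, and without LIF was higher in the lacking lines by 1.11 ± 0.11 (adjusted p = 0.000137). The late trophoblast markers Tpbpa and Prl2c2 stayed at or below 3.79 on every array. Of 6 mesenchyme markers 5 rose in the retaining lines (sums of 9.82 to 10.36 with LIF and 10.32 to 11.59 without) and 0 passed in the lacking lines (9.59 to 9.93 and 9.77 to 9.98). With LIF the lacking lines were lower in 1 of these, Vim (-1.79), and higher in 2, Thy1 (1.33) and Pdgfrb (0.56). Of all tested genes 6.48% were lower and 7.65% higher there. Of 8 endoderm and liver markers 3 rose and 1 fell in the retaining lines (8.71 to 9.01 and 9.20 to 9.96) and 0 passed in the lacking lines (8.61 to 8.96 and 8.93 to 9.02), with albumin (Alb) at or below 4.25 everywhere. Of 4 blood markers 2 rose in the retaining lines (7.45 to 7.72 and 7.99 to 8.33) and 0 passed in the lacking lines (8.03 to 8.40 and 8.12 to 8.21), with the leukocyte gene Ptprc at or below 3.32 everywhere. The part of these cell types in the serpin results was not tested.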

How the data were processed

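RNA of 8 ESC lines with and without LIF was measured on 16 Affymetrix arrays after labelling with the WT Plus kit. Per the submitters' processing notes, the authors used affy and RMA, and the deposited table holds log2 signals. The sources used here give no versions and no probe set definition. RMA scales the arrays to each other, so a change of total RNA is not seen, and the number of arrays limits the precision.

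Of 65770 probe sets, 27 had no value, 30439 had 1 gene symbol (22653 matched by Entrez identifier to a reference table of assembly GRCm38.p6, 827 symbols updated), 2146 had several and 33185 had none. The probe set of highest mean stood for a gene. A gene was tested if at least 3 arrays had it above their own 40th percentile (22872 genes, 35 serpins). The fits used limma 3.58.1 (lmFit, eBayes; R 4.3.3), and p-values were adjusted by Benjamini-Hochberg within each of 5 comparisons over every tested gene, with a threshold of 0.05. Responses to LIF were fitted over all 16 arrays with line as a block, and class differences over the 8 arrays of a condition. Each fit used a single spread per gene for both classes, so an SE is not that of the lines of its own class alone. The pairing of the 2 arrays of a line comes from the labels, which give the same cell line. As a check, deviations from the group means correlated by -0.05 to 0.28 between them. The fits were tested on simulated data.

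The members, the lists and the comparisons were chosen with earlier results of these data known. Serpin genes were named by symbol, with changes for those above log2 6 on at least 1 array, values on every array for those with a passed change of at least 1 log2 and the highest of each clade, and up to 3 genes of largest change from each list. Plat was named outside that rule, as the target of Serpini1, and so were the other genes of the cluster and, after their values were seen, Elf5, Ctso, Ctsa and Ctsl. The lists were plasminogen activation and coagulation, collagens and their folding, heat shock and ER folding, cathepsins and granzymes, membrane serine proteases, other inhibitors, TGF-beta response and 5 marker lists. Promoter windows came from RefSeq and were aligned locally with Biopython 1.88. Alternatives were the filter, the probe set rule, centring of arrays, the trended robust prior, the run of titles as covariate or the first run alone, array weights, the block, each line left out and, added after the data were seen, members above log2 5.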

Additional observations from a re-analysis of the deposited data

Results flagged for a closer look

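Among the 5 retaining lines with LIF, EBRTcH3 stood apart from the other 4 in 2 of 18 groups of 5 values examined with Dixon's test, where chance alone gives about 1 group in 20. Serpinb9b read 7.00 in EBRTcH3 and 5.90 to 6.20 in the other 4 lines. Serping1 read 7.28 in EBRTcH3 and 6.37 to 6.63 in the others. EBRTcH3 is the wild type and the other 4 carry a vector. Among these 5 retaining lines, both genes had their smallest response to LIF withdrawal in EBRTcH3. That response is measured from the same high value with LIF, so it is no separate observation.

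By the limma test of the difference itself, 7 serpins responded to LIF withdrawal differently in lines that lack a coiled coil and lines that retain it. The difference, lacking minus retaining, was 2.31 log2 for Serpinb6c and 0.90 for Serpinf1. It was -1.64 for Serpinb9, -1.40 for Serpinb9b, -1.08 for Serping1, -0.75 for Serpinh1 and -0.59 for Serpinb6a. In Serpinf1 and Serping1 every retaining line moved to one side and every lacking line to the other.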

How the results depend on the processing

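Of 25 changes that passed in single serpins, 12 passed under all 17 alternatives and 15 under the 16 other than the first run alone, and over all pairs of such a change and an alternative 360 passed, 65 did not and 0 turned sign. The cause was not tested. In the retaining lines 7 to 8 of 9 serpins passed with each line left out, and 8 without the replicate block. In the lacking lines 1 passed with only genes above log2 6 tested, with the run of titles as covariate or without the replicate block, 2 with array weights, and 0 to 2 with a line left out (2 without EBRTcH3 or MBD-deleted). For the difference of the responses the count was 3 with the run as covariate, 2 in the first run alone (its 1 lacking line is assumed to vary like the retaining lines), 6 without the replicate block and 3 to 7 with a line left out (3 without the empty vector, 4 without MBD3a, MBD3b, MBD3c, coiled-coil-deleted or doubly deleted). With LIF the classes differed in 3 serpins with the run as covariate, 1 in the first run alone, 2 with a replicate block, 8 of 19 with members above log2 5, and 3 to 5 with a line left out (3 without coiled-coil-deleted or doubly deleted). Without LIF the count was 3 to 7 with a line left out (3 without doubly deleted, 7 without MBD-deleted) and 5 with a replicate block, whose consensus correlation was 0.0613.

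Signs turned in 18 cases, none of which had passed. Serpini1 turned in the retaining lines (-0.066 with centred arrays, -0.10 in the first run, -0.034 with array weights, -0.10 to 0.18 with a line left out), in the lacking lines (-0.06 with the run as covariate, -0.015 to 0.12 with a line left out) and in the difference of these (-0.17 with the run as covariate, -0.12 to 0.16 with a line left out). The class difference without LIF turned for Serpinb9e (-0.72 in the first run, -0.075 with array weights, -0.20 to 0.41 with a line left out) and for Serpinf1 (0.45 in the first run). Serpinb6a turned in the lacking lines (-0.02 in the first run). Signals near log2 4, as of Serpinb9 and Serpinb9e with LIF, lie below the array medians of 4.72 to 4.85, where little can be told of further falls.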
